A study of Mus musculus with 4 samples.

Results

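The white matter of the forebrain was described in 1345 of the 10549 spots of 4 mouse brain sections profiled with Visium, in which RNA is captured on an array of barcoded spots laid under a tissue section. The spots were those to which the authors' deposited annotation gives the region code FB. The files do not spell the code out, and they were read as fibre tract from the levels of Mal, Ermn and Fa2h, markers of myelinating oligodendrocytes. Each section came from a different mouse and genotype, so there was 1 section for each of 4 genotypes. FB spots numbered 315 of 2941 in the 5xFAD-Dp16 section, 302 of 2347 in the 5xFAD section, 293 of 2540 in the Dp16 section and 435 of 2721 in the wild-type section, or 10.7%, 12.9%, 11.5% and 15.99% of the spots of these sections.

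The 5xFAD line carries human transgenes with mutations of familial Alzheimer's disease, driven by the Thy1 promoter in neurons, and forms amyloid plaques. The Dp16 line carries an extra copy of the segment of mouse chromosome 16 that corresponds to much of the human chromosome trisomic in Down syndrome. The 5xFAD-Dp16 mouse carried both, and the reference mouse was a wild-type C57BL/6J animal. All animals were male and 9 months old, and all sections were cut at 10 µm from frozen hemispheres between 1 and -2 mm from bregma. The 4 comparisons that followed from this design were the effect of the 5xFAD transgenes with the duplication (5xFAD-Dp16 over Dp16) and without it (5xFAD over wild-type), and the effect of the duplication with the transgenes (5xFAD-Dp16 over 5xFAD) and without them (Dp16 over wild-type). With 1 section per genotype no test between genotypes could be made, and differences between genotypes also hold the differences between animals, sections and the exact tracts cut.

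White matter consists of bundled axons wrapped in myelin, a stack of membrane laid down by oligodendrocytes. Its RNA comes mainly from oligodendrocytes, with astrocytes, microglia, precursor cells and vessels between them, while most neuronal cell bodies lie in grey matter. Mbp and Mobp encode structural proteins of myelin, Mal and Opalin further membrane proteins of it, and Fa2h makes the hydroxylated lipids it contains. Myelin mRNAs are in part carried into the sheath and neuronal mRNAs into axons and dendrites, so a spot can hold RNA of cells whose bodies lie elsewhere.

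Counts in white matter were lower per spot than elsewhere. The median white matter spot held 6057 unique molecular identifiers (UMIs) in the 5xFAD-Dp16 section, 6389 in the 5xFAD section, 7086 in the Dp16 section and 7402 in the wild-type section, against 11963, 10198, 10760 and 12278.5 UMIs in the other spots of these sections. Summed over spots, this gave between 2079842 and 3900219 UMIs of white matter per section. Mitochondrial transcripts took a median of 9.25% of the UMIs of a white matter spot in the 5xFAD-Dp16 section and between 11.7% and 11.9% in the other sections. Of the 697 array positions labelled FB in any section, 385 carried the label in at least 2 sections. Barcodes mark array positions and were shared by design, so shared barcodes are not shared cells. Fewer cells of a type and less RNA per cell cannot be told apart in such spots.

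The 3 markers were high in FB spots of every section. The code is read as fibre tract because of them, so their values describe the label and are no independent check of it. Mal was at 1954, 1210, 1168 and 1465 CPM (counts scaled to a total of 1000000 per section and region) in white matter of the 5xFAD-Dp16, 5xFAD, Dp16 and wild-type sections, against 211, 158, 163 and 167 CPM in all other spots of these sections. White matter and the remaining tissue did not overlap, and the 5xFAD-Dp16 section stood highest in both. Ermn, which encodes the oligodendrocyte cytoskeletal protein ermin, was at 396, 368, 305 and 398 CPM in white matter of the 5xFAD-Dp16, 5xFAD, Dp16 and wild-type sections, against 42.1, 48.5, 43.3 and 48.7 CPM elsewhere. Fa2h, the fatty acid 2-hydroxylase, was at 258, 239, 221 and 273 CPM in white matter of the 5xFAD-Dp16, 5xFAD, Dp16 and wild-type sections, against 30.4, 32.5, 31.4 and 35.2 CPM elsewhere. On the log2 scale the difference between white matter and the rest was 3.08 ± 0.09 for Mal, 3.05 ± 0.09 for Ermn and 2.98 ± 0.08 for Fa2h (SE, n = 4 sections, edgeR quasi-likelihood test with the section as a block, adjusted p = 3.48e-10, 3.77e-10 and 3.19e-10). Of 12 regions with at least 30 spots in every section, FB ranked first for Mal in all 4. The genes lie on chromosome 2 (Mal at chr2:127633226-127656695, Ermn at chr2:58045115-58052864) and chromosome 8 (Fa2h at chr8:111345138-111393821) of GRCm38.p6.

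**Figure D1:**
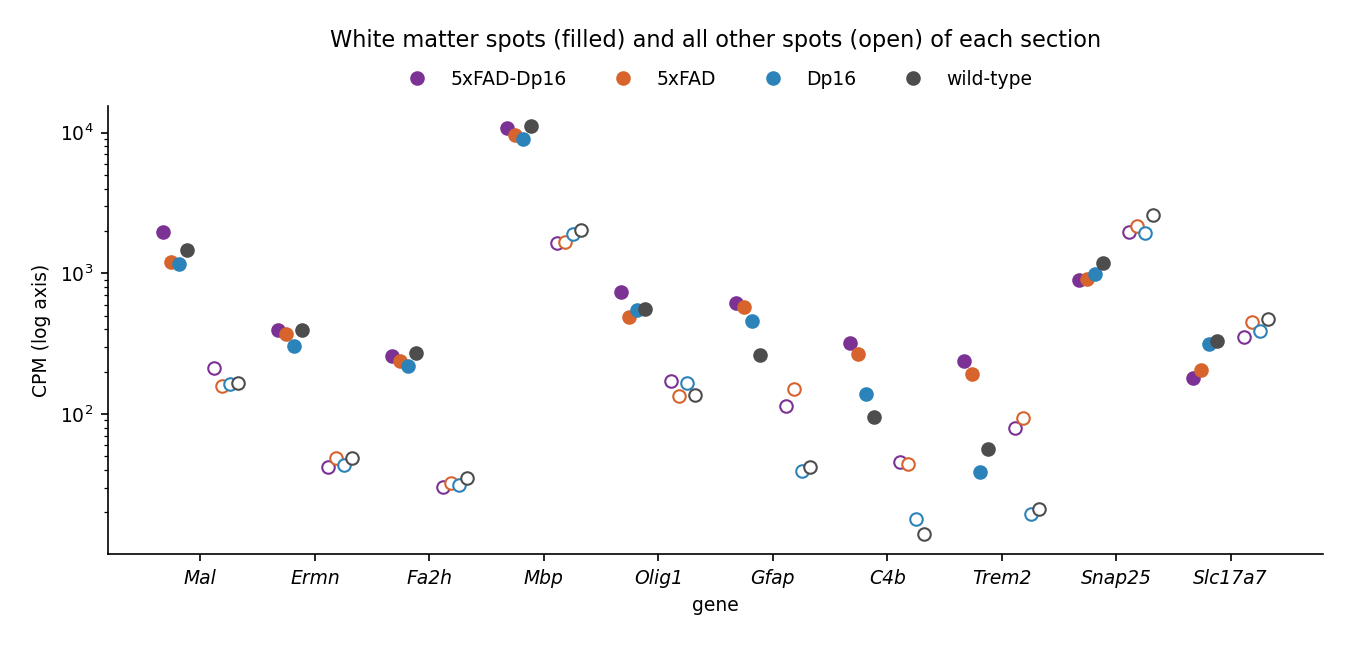
CPM (log axis) of 10 genes in white matter spots (filled) and in all other spots (open) of each of the 4 sections, 1 point per section. The filled points of Mal, Ermn, Fa2h, Mbp and Olig1 lie above all open points of the same gene, those of Snap25 lie below them, and Trem2 is higher in the 5xFAD-Dp16 and 5xFAD sections than in the Dp16 and wild-type sections in both kinds of spots.

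Relative to the rest of the sections, 3739 of 15757 genes tested were higher in white matter (23.7%) and 3691 were lower (23.4%) by the edgeR quasi-likelihood test at an adjusted p under 0.05. At least 2-fold differences were fewer, with 1686 genes higher (10.7%) and 823 lower (5.22%). In every one of the 4 sections, white matter exceeded the rest 2-fold or more for 468 of the 9139 genes averaging 10 CPM or over, and fell short of it 2-fold or more for 90. These p-values measure how the difference between white matter and the rest varied over 4 sections of different genotypes, with the section as a block. The test moderates this spread with an estimate shared between genes. The sources used here do not say how spots were assigned to regions, and if expression was used, this contrast is in part circular.

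Structural myelin genes rose together. All 15 myelin protein genes were higher in white matter, with a median log2 difference of 2.70, against 0.0047 over all genes tested. Mbp was at 10752, 9608, 9059 and 11146 CPM in white matter of the 5xFAD-Dp16, 5xFAD, Dp16 and wild-type sections, against 1646, 1667, 1889 and 2031 CPM elsewhere, a log2 difference of 2.53. All values of Mbp in white matter lay above all values elsewhere. The smallest difference of the list was that of Gpm6b, a membrane glycoprotein gene that astrocytes and neurons also express, at 1.03.

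All 33 further genes of mature oligodendrocytes were also higher in white matter, with a median log2 difference of 2.52. Among the genes with the largest differences were Gjb1, which encodes an oligodendrocyte gap junction protein, at 3.0002, Anln, an actin-binding protein of the myelin septin scaffold, at 3.10, Aspa, which splits N-acetylaspartate to supply acetate, at 3.004, and Klk6, an oligodendrocyte serine protease, at 3.15. Il33, a cytokine gene that oligodendrocytes express in the adult brain, was at 508, 276, 308 and 299.7 CPM in white matter of the 5xFAD-Dp16, 5xFAD, Dp16 and wild-type sections, against 71.8, 56.4, 65.04 and 55.7 CPM elsewhere, and its log2 difference was 2.50. Of 9 oligodendrocyte transcription factor genes, 8 were higher and 1 was lower. Sox10 and Myrf, which drive the myelin programme, differed by 2.68 and 2.73 on the log2 scale. The lower one was Tcf7l2, at -1.26, a gene that thalamic neurons express strongly, and its difference was -3.57 against the thalamus.

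Enzymes and precursor genes were less uniform. Of 15 myelin lipid genes, 11 were higher and 3 lower (median log2 difference 1.38), while of 21 cholesterol synthesis genes 5 were higher and 2 lower (0.11), a share of higher genes close to the 23.7% of all genes, with Hmgcs1 at 0.03. Of 15 oligodendrocyte precursor genes, 6 were higher and 2 lower (0.35). Pdgfra, the growth factor receptor of precursor cells, was at 21.6, 19.3, 27.0 and 26.4 CPM in white matter of the 5xFAD-Dp16, 5xFAD, Dp16 and wild-type sections, against 15.1, 15.5, 15.8 and 17.8 CPM elsewhere. The sections did not overlap, but the log2 difference was only 0.60 ± 0.11 (SE, n = 4 sections, edgeR adjusted p = 0.000906). Of 13 genes of newly formed oligodendrocytes, 7 were higher and 2 lower. Enpp6, which marks cells that have just left the precursor state, was at 43.3, 41.2, 33.0 and 62.8 CPM in white matter of the 5xFAD-Dp16, 5xFAD, Dp16 and wild-type sections, against 3.49, 5.92, 3.93 and 5.71 CPM elsewhere, a log2 difference of 3.30. Bcas1, another gene of early myelinating cells that mature ones also express, differed by 2.32.

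Immune genes were also concentrated in white matter. Of 18 homeostatic microglial genes 15 were higher (median log2 difference 1.03), with Csf1r, the receptor that microglia need to survive, at 1.15. Of 42 microglial genes known from amyloid plaques 37 were higher (1.201). Summed over its members, this list reached 29402 CPM in wild-type white matter. The 33 mature oligodendrocyte genes summed to 20807 CPM there, and the 15 myelin protein genes, a separate list, to 30405 CPM. Such a sum is weighted towards the most abundant members, so it is no measure of microglial RNA. Which cells this RNA came from was not tested. The complement list had 8 of 11 members higher (1.41), led by C4b, a component of the classical complement pathway. C4b was at 317, 267, 138 and 95.6 CPM in white matter of the 5xFAD-Dp16, 5xFAD, Dp16 and wild-type sections, against 45.4, 44.0, 17.97 and 14.02 CPM elsewhere, a log2 difference of 2.82 ± 0.08 (SE, n = 4 sections, edgeR adjusted p = 3.1e-10). Even the wild-type value exceeded all values outside white matter, and FB ranked first of the 12 regions for C4b in every section. C4b (chr17:34728139-34743902) has a near-identical copy, C4a, and its counts are uncertain where reads could not be split between them, which also holds for H2-K1 and H2-D1 and for the Serpina3 and Bcl2a1 families. Of 17 genes of major histocompatibility complex (MHC) antigen presentation 12 were higher, and of 21 interferon-stimulated genes 19, with Xaf1 at 2.09.

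Astrocyte genes split. Of 19 reactive astrocyte genes 17 were higher (median log2 difference 1.34), while of 20 general astrocyte genes 10 were higher and 1 lower (0.29). Gfap, the intermediate filament gene of fibrous astrocytes, was at 613, 579, 459 and 264 CPM in white matter of the 5xFAD-Dp16, 5xFAD, Dp16 and wild-type sections, against 113, 151, 39.2 and 42.0 CPM elsewhere, a log2 difference of 2.68. Slc1a2, the main astrocytic glutamate transporter, was at 530.8, 589.7, 589.5 and 682 CPM in white matter of the 5xFAD-Dp16, 5xFAD, Dp16 and wild-type sections, against 559.8, 636, 620.2 and 763 CPM elsewhere. Its log2 difference was -0.06 (edgeR adjusted p = 0.47).

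Most neuronal lists were depleted but present. All 18 pan-neuronal and axonal genes were lower in white matter (median log2 difference -0.97), as were 16 of 18 excitatory neuron genes (-0.85) and 9 of 15 inhibitory neuron genes (-0.44). Of 12 striatal projection neuron genes 4 were higher and 3 lower (0.18), near the shares of all genes (23.7% higher and 23.4% lower). Snap25, of the synaptic release machinery, differed by -1.07, and Nefl, the light neurofilament, by -1.10. Among genes averaging 10 CPM or over and lower in all 4 sections, the 10 ranked lowest by their smallest difference included Vip at -2.54, Cbln1 at -2.53, Tafa1 at -2.46 and Lamp5 at -2.21. Of 14 hypothalamic neuropeptide genes tested, with no such minimum, 10 were lower, and the lowest of them was at -4.85. Of 54 nuclear oxidative phosphorylation genes 43 were lower and none higher, by little (median -0.30), with Ndufa4 at -0.58. Sst, a neuropeptide gene of interneurons, was not called (-0.18).

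Genes of the ependyma, which lines the ventricle, of the choroid plexus and of the meninges were also counted in FB spots. Where this RNA came from was not tested. Of 14 ependymal genes 13 were higher than in the rest, with Foxj1, which drives the formation of motile cilia, at 2.25. Ttr, the transthyretin gene of the choroid plexus, was at 8185, 32944, 28133 and 25368 CPM in white matter of the 5xFAD-Dp16, 5xFAD, Dp16 and wild-type sections, against 14943, 17780.3, 32528 and 4426 CPM elsewhere. The sections overlapped and the difference was not called (0.59, edgeR adjusted p = 0.25). Of 12 choroid plexus genes 6 were called higher (median 0.91), while the median by section lay between -0.54 in 5xFAD-Dp16 and 2.47 in wild-type. Of 14 meningeal genes 6 were higher, with Myoc at 2.93.

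FB was next set against 2 single regions. The thalamus is crossed by many myelinated fibres, and the region coded VL ranked next to FB for the summed level of the 33 mature oligodendrocyte genes, with means of 21680 CPM for FB, 17003 CPM for VL and 7221 CPM for the thalamus. Without Ptgds and Enpp2, which the choroid plexus also expresses, VL lost that rank, with 16076 CPM for FB, 4915 CPM for VL and 5528 CPM for the thalamus. Against the thalamus, 3329 of 13379 genes were higher in white matter (24.9%) and 3126 lower (23.4%). All 15 myelin protein genes remained higher, by a smaller median of 1.79, and all 18 pan-neuronal genes lower (-1.20). Excitatory neuron genes were split, with 9 of 18 higher and 9 lower (0.14). Thbs4, a thrombospondin gene that astrocytes near the ventricle express, had between 24.7 and 43.0 CPM in white matter of the 4 sections. In the thalamus it had 0.428 CPM in the wild-type section and no UMI in the other sections. General astrocyte genes were split against the thalamus, with 6 of 20 higher and 9 lower.

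Against VL, 1862 of 12540 genes were higher in white matter (14.8%) and 2085 lower (16.6%). Without scaling factors for composition (trimmed mean of M values, TMM), the split became 2858 higher and 1505 lower, and without the 5xFAD-Dp16 section the counts were 1220 and 1346. Myelin genes were again higher in white matter (14 of 15). Their median difference was 2.35, 3.28, 3.99 and 1.07 in the 5xFAD-Dp16, 5xFAD, Dp16 and wild-type sections. VL itself varied, with 6600, 2978, 1718 and 14750 CPM of myelin protein transcripts in these sections, from 95, 40, 102 and 52 spots. Pan-neuronal genes, lower in white matter in the other contrasts, were higher than in VL (13 of 18, median 0.70). All 12 choroid plexus genes were higher in VL (median -3.14), with Ttr at -3.49. The MHC list had no member of 15 higher in white matter than in VL and 1 lower, and the interferon list 1 higher and 4 lower of 19. Of 14 reactive astrocyte genes 4 were higher and 3 lower than in VL, and of 10 complement genes 5 were higher and 2 lower.

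White matter was not uniform within a section. The authors' clusters, drawn from the same counts and so used here only as a description, placed FB spots in 17 of 22 clusters. Cluster 3 held 170, 139, 147 and 262 of the FB spots of the 5xFAD-Dp16, 5xFAD, Dp16 and wild-type sections, or 54.0%, 46.0%, 50.2% and 60.2%, and 81.8% of all cluster 3 spots in the series were FB. Summed over sections, FB spots of cluster 3 had 43905 CPM of myelin protein transcripts and 2349 CPM of Mal. In cluster 9, with 114 FB spots, these transcripts took 13063 CPM and the cortical neuron gene Slc17a7 reached 1009 CPM. Cluster 13 carried choroid plexus RNA in every section, with Ttr between 144356 and 218219 CPM, and held 11, 34, 23 and 23 FB spots of the 5xFAD-Dp16, 5xFAD, Dp16 and wild-type sections. Cluster 12 held 3, 8, 19 and 4 FB spots of these sections, and Ttr in them was at 2582, 8804, 32842 and 81.1 CPM. Together both clusters made up 4.44%, 13.9%, 14.3% and 6.21% of FB spots in the 5xFAD-Dp16, 5xFAD, Dp16 and wild-type sections. Cluster 11 held 44 FB spots in the 5xFAD-Dp16 section and 39 in the 5xFAD section, but none in the Dp16 and wild-type sections. Its FB spots kept 32251 CPM of myelin transcripts and had 945 CPM of Cst7, a cystatin gene of plaque-associated microglia.

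**Figure D2:**
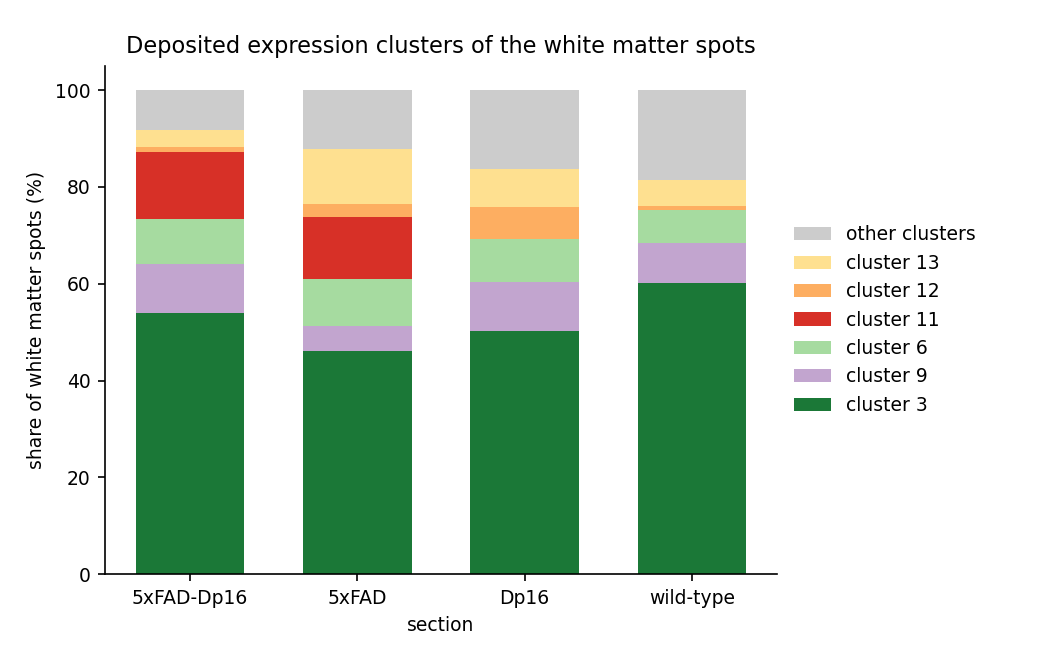
Share of FB spots (percent) in each section that fell into the authors' clusters 3, 9, 6, 11, 12 and 13 and into all other clusters. Cluster 3 made up between 46.0% and 60.2% of each section, and cluster 11 was found in the 5xFAD-Dp16 and 5xFAD sections.

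Spot by spot, the 15 myelin protein genes took a median of 3.90%, 3.30%, 2.93% and 3.94% of the UMIs of an FB spot in the 5xFAD-Dp16, 5xFAD, Dp16 and wild-type sections. In the other spots of these sections the medians were 0.356%, 0.329%, 0.358% and 0.363%. The spread within FB was wide, with the 10th and 90th percentiles at 1.02% and 5.597% in the 5xFAD-Dp16 section, 1.15% and 4.98% in the 5xFAD section, 0.770% and 5.35% in the Dp16 section, and 0.903% and 6.32% in the wild-type section. Within cluster 3 the medians of the sections lay closer together, at 4.59%, 4.15%, 4.45% and 4.97% for 5xFAD-Dp16, 5xFAD, Dp16 and wild-type. Pan-neuronal and axonal genes took a median of 0.179%, 0.264%, 0.311% and 0.288% of an FB spot in the 5xFAD-Dp16, 5xFAD, Dp16 and wild-type sections, against 0.893%, 1.02%, 0.893% and 1.01% elsewhere.

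**Figure D3:**
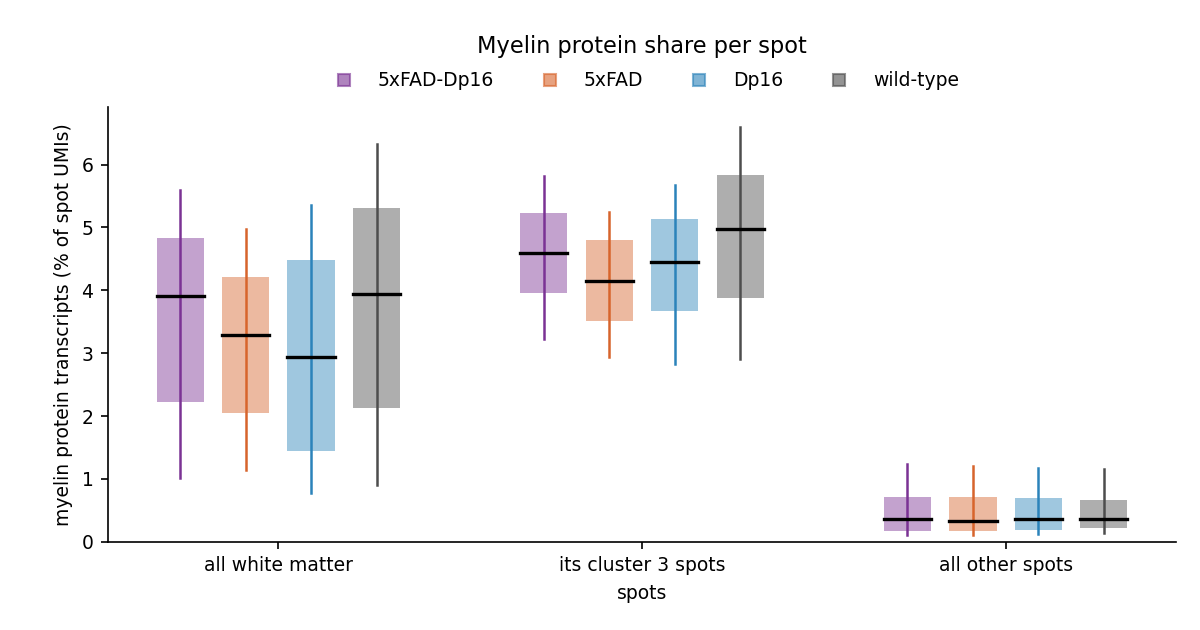
Percent of each spot's UMIs from 15 myelin protein genes, by section, for all FB spots, FB spots of cluster 3 and the remaining spots. Bars span the interquartile range, lines the 10th to 90th percentiles, and marks the median. FB medians run from 2.93% to 3.94% and those of the rest from 0.329% to 0.363%.

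Between genotypes, values are ratios of CPM within white matter on the log2 scale, with 95% intervals that cover counting error only, and a gene with 10 CPM or more on average over the sections (9057 genes) was counted when it differed at least 1.5-fold. The median ratio of all genes was below 0 in the 5xFAD pairs, at -0.13 for 5xFAD-Dp16 over Dp16 and -0.11 for 5xFAD over wild-type, and list medians are given relative to it. The 5xFAD-Dp16 section enters both the transgene and the duplication comparisons, as does every other section.

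With the 5xFAD transgenes, 69 genes passed 1.5-fold upwards in each of the 2 pairs (0.762%) and 216 passed it downwards in each (2.38%). With TMM factors the counts were 88 and 128. Of the plaque-associated microglial list, 24 of the 34 genes over 10 CPM were higher in both pairs (42 were measured), and none was lower. The mean of 10 CPM is taken over all sections, so a gene can pass it through the transgene sections alone. The lists were also chosen with earlier results of these data known, so this count is a description only. The relative median log2 ratio of the list was 1.38 for 5xFAD-Dp16 over Dp16 and 1.03 for 5xFAD over wild-type. In the rest of the sections these medians were 0.87 and 1.202.

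Cst7 (chr2:150570415-150578944) was at 222 and 139.8 CPM in white matter of the 5xFAD-Dp16 and 5xFAD sections, against 0.749 and 2.05 CPM in the Dp16 and wild-type sections, where 2 and 8 UMIs were counted. The 2 sections with the transgenes lay far above the 2 without. The log2 ratio was 8.21 (6.35 to 11.26) for 5xFAD-Dp16 over Dp16 and 6.09 (5.09 to 7.32) for 5xFAD over wild-type. Trem2, the lipid-sensing receptor that microglia need to surround plaques, was at 238 and 192 CPM in the 5xFAD-Dp16 and 5xFAD sections, against 39.0 and 56.4 CPM in the Dp16 and wild-type sections, or ratios of 2.61 (2.30 to 2.93) and 1.77 (1.53 to 2.01). Tyrobp, its signalling adaptor, was at 793 and 563 CPM in the 5xFAD-Dp16 and 5xFAD sections, against 176 and 189 CPM in the Dp16 and wild-type sections. Itgax, the CD11c integrin of these microglia, had 27, 38 and 2 UMIs in the 5xFAD-Dp16, 5xFAD and Dp16 sections and none in the wild-type section. With the wild-type count set to a floor of 3 UMIs, the log2 ratio of Itgax for 5xFAD over wild-type was 4.47. This value leaves out counting error.

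Secreted factors of the same microglial state were also higher. Spp1, the osteopontin gene, was at 103 and 76.6 CPM in white matter of the 5xFAD-Dp16 and 5xFAD sections, against 23.2 and 14.6 CPM in the Dp16 and wild-type sections. Its log2 ratios were 2.15 (1.74 to 2.59) for 5xFAD-Dp16 over Dp16 and 2.39 (1.95 to 2.85) for 5xFAD over wild-type, and in the rest of the sections 1.14 and 1.27. The white matter ratio thus exceeded that of the rest by 1.01 and 1.12. For white matter of cluster 3 the excess was 0.05 for 5xFAD-Dp16 over Dp16 and -0.32 for 5xFAD over wild-type. For white matter spots without a plaque or neighbour mark it was -0.03 for 5xFAD over wild-type, and the other pair is not given here. In both settings only white matter was restricted, while the rest kept all its spots, plaque spots included. These values are therefore no comparison within cluster 3 or within unmarked tissue. Igf1, a growth factor that such microglia release, was at 22.6 and 18.4 CPM in the 5xFAD-Dp16 and 5xFAD sections, against 5.62 and 2.82 CPM in the Dp16 and wild-type sections. It averaged over 10 CPM only through the sections with the transgenes. Gpnmb and Ccl6 were higher in both pairs as well, at log2 ratios of 2.27 and 2.74 for 5xFAD-Dp16 over Dp16 and 2.43 and 2.91 for 5xFAD over wild-type.

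The microglial values depended on which spots were taken. Within cluster 3 the plaque-associated list had relative medians of 0.57 for 5xFAD-Dp16 over Dp16 and 0.52 for 5xFAD over wild-type. Restricting to cluster 3 also leaves out cluster 11, whose FB spots had 945 CPM of Cst7. Without clusters 12 and 13 the medians were 1.69 and 1.23. Homeostatic microglial genes were higher by 0.84 and 0.42 in the 5xFAD-Dp16 over Dp16 and 5xFAD over wild-type pairs, with 3 of 14 at least 1.5-fold higher in both, among them Fcrls with 2.28 and 1.37. Cx3cr1, the fractalkine receptor, differed by 0.67 (0.05 to 1.29) and 0.55 (0.05 to 1.06) in these pairs.

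The authors marked plaque spots and their neighbours in the 5xFAD-Dp16 and 5xFAD sections. In white matter 33 and 39 spots were plaque spots, and 101 and 76 were neighbours. Cst7 was at 827 CPM in plaque spots and 99.1 CPM in unmarked spots of 5xFAD-Dp16 white matter, and at 450.1 CPM and 53.5 CPM in plaque and unmarked spots of 5xFAD white matter. Trem2 was likewise at 609 and 155 CPM in plaque and unmarked spots of the 5xFAD-Dp16 section, and at 562 and 109 CPM in those of the 5xFAD section. The sources used here do not say how the marks were drawn. Mal differed little, with 2143 and 1895 CPM in plaque and unmarked spots of the 5xFAD-Dp16 section, and 1304 and 1159.7 CPM in those of the 5xFAD section.

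Complement and astrocyte genes were next. Of 6 complement genes over 10 CPM, 4 passed 1.5-fold upwards in both 5xFAD pairs. C4b had log2 ratios of 1.199 (1.01 to 1.39) for 5xFAD-Dp16 over Dp16 and 1.48 (1.29 to 1.67) for 5xFAD over wild-type, and within cluster 3 of 1.28 and 1.41. C1qa, a subunit of the complement initiator, had 1.45 and 0.89 in these pairs. Of 8 reactive astrocyte genes over 10 CPM, 1 passed 1.5-fold in both pairs, and 5 were above counting error in both (background 2.24% of genes). Gfap differed by 0.42 (0.30 to 0.53) for 5xFAD-Dp16 over Dp16 and 1.13 (1.01 to 1.25) for 5xFAD over wild-type, and in the rest of the sections by 1.53 and 1.85. Serpina3n, a protease inhibitor gene of reactive glia, was at 77.4 and 66.3 CPM in white matter of the 5xFAD-Dp16 and 5xFAD sections, against 61.0 and 24.9 CPM in the Dp16 and wild-type sections. The wild-type section stood apart, and the ratios were 0.34 (0.02 to 0.67) for 5xFAD-Dp16 over Dp16 and 1.42 (1.04 to 1.80) for 5xFAD over wild-type.

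The share of spots with these genes was also taken after every spot was thinned to 2801 UMIs, with spots below this depth left out (17, 11, 10 and 30 in the 5xFAD-Dp16, 5xFAD, Dp16 and wild-type sections). C4b was found in 49.7%, 47.8%, 27.6% and 23.7% of white matter spots of the 5xFAD-Dp16, 5xFAD, Dp16 and wild-type sections, and without thinning in 68.9%, 70.5%, 48.8% and 46.0%. In the thalamus the thinned shares were 16.4%, 14.2%, 3.81% and 3.44% for these sections, and the unthinned ones 35.02% and 39.9% for 5xFAD-Dp16 and 5xFAD, and 54 of 450 spots and 10.3% for Dp16 and wild-type. Cst7 was found in 20.5%, 21.6% and 0.741% of thinned white matter spots of the 5xFAD-Dp16, 5xFAD and wild-type sections, and in 0 of 283 of the Dp16 section, which at this depth allows a share of up to 1.30% by the exact interval for counting error only. Without thinning the shares were 27.3%, 30.1%, 0.683% and 1.84% in 5xFAD-Dp16, 5xFAD, Dp16 and wild-type.

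**Figure D4:**
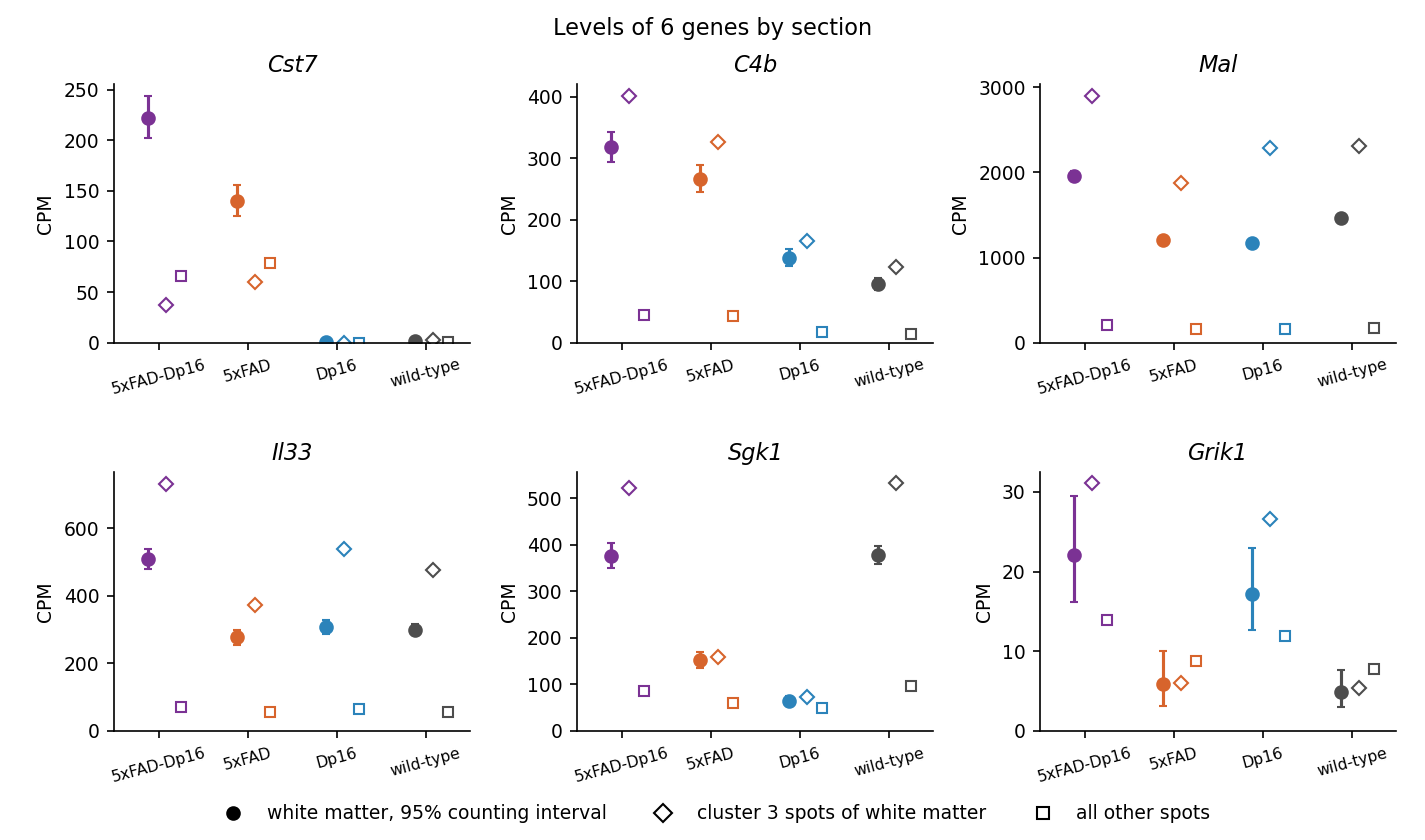
CPM of Cst7, C4b, Mal, Il33, Sgk1 and Grik1 by section in all FB spots (with 95% counting intervals), FB spots of cluster 3 and the remaining spots. Cst7 and C4b are higher in the 5xFAD-Dp16 and 5xFAD sections, Grik1 in the 5xFAD-Dp16 and Dp16 sections, and Sgk1 in the 5xFAD-Dp16 and wild-type sections.

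Pan-neuronal and excitatory neuron genes were on the lower side in white matter with the transgenes, and other neuronal lists varied. Relative medians for 5xFAD-Dp16 over Dp16 and 5xFAD over wild-type were 0.31 and 0.97 for thalamic neuron genes. They were 0.68 and -0.35 for striatal neuron genes, and -1.06 and -0.21 for inhibitory neuron genes. In cluster 3 the thalamic medians were -0.36 and -0.47. Of 18 pan-neuronal genes, 12 were below counting error in both 5xFAD pairs (background 6.32% of genes), with relative medians of -0.31 for 5xFAD-Dp16 over Dp16 and -0.23 for 5xFAD over wild-type. None of the 18 was at least 1.5-fold lower in both pairs, and 1 was at least 1.5-fold higher. Excitatory neuron genes had relative medians of -0.45 and -0.50, and 4 of 16 were at least 1.5-fold lower in both pairs. Camk2a, the synaptic kinase gene, was at 25.96 and 31.4 CPM in the 5xFAD-Dp16 and 5xFAD sections, against 52.8 and 67.2 CPM in the Dp16 and wild-type sections, ratios of -1.02 and -1.10. In the rest of the sections its ratios were -0.33 and -0.38. Hpcal4, a neuronal calcium sensor gene, was at 77.9 and 89.2 CPM in the 5xFAD-Dp16 and 5xFAD sections, against 185 and 196 CPM in the Dp16 and wild-type sections. Thy1 went the other way, with 499.6 and 527 CPM in the 5xFAD-Dp16 and 5xFAD sections, against 300.0 and 256 CPM in the Dp16 and wild-type sections. The transgenes of 5xFAD use the Thy1 promoter, and whether their transcripts were counted as Thy1 was not tested. Neuron-rich cluster 9 held 32, 16, 30 and 36 FB spots of the 5xFAD-Dp16, 5xFAD, Dp16 and wild-type sections. Within cluster 3 alone the excitatory medians were -0.65 for 5xFAD-Dp16 over Dp16 and -0.43 for 5xFAD over wild-type.

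Myelin genes differed between the 2 transgene pairs. None of the 15 myelin protein genes and none of the 33 mature oligodendrocyte genes was at least 1.5-fold higher or lower in both pairs. Over all genes these shares were also small, at 0.762% higher and 2.38% lower. Above counting error in both pairs were 2 of the 15 and 3 of the 33 (background 2.24% of genes), and none was below (6.32%). Relative medians of the myelin protein and mature oligodendrocyte lists were 0.59 and 0.46 for 5xFAD-Dp16 over Dp16, and 0.03 and -0.01 for 5xFAD over wild-type. Within cluster 3 they were 0.22 and 0.06 for 5xFAD-Dp16 over Dp16, and 0.03 and -0.04 for 5xFAD over wild-type. Mal was higher in 5xFAD-Dp16 than in Dp16 by 0.74 (0.67 to 0.81) and lower in 5xFAD than in wild-type, at -0.28 (-0.34 to -0.21). The 5xFAD-Dp16 section was the highest of the 4, and within cluster 3 Mal was at 2901, 1873, 2284 and 2313 CPM in the 5xFAD-Dp16, 5xFAD, Dp16 and wild-type sections. Il33 also stood highest in the 5xFAD-Dp16 section, at 733, 371, 538 and 476 CPM in cluster 3 of the 5xFAD-Dp16, 5xFAD, Dp16 and wild-type sections. Klk6 was at 56.7, 99.0, 73.0 and 85.9 CPM in all white matter of the 5xFAD-Dp16, 5xFAD, Dp16 and wild-type sections, lowest where Mal was highest.

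**Figure D5:**
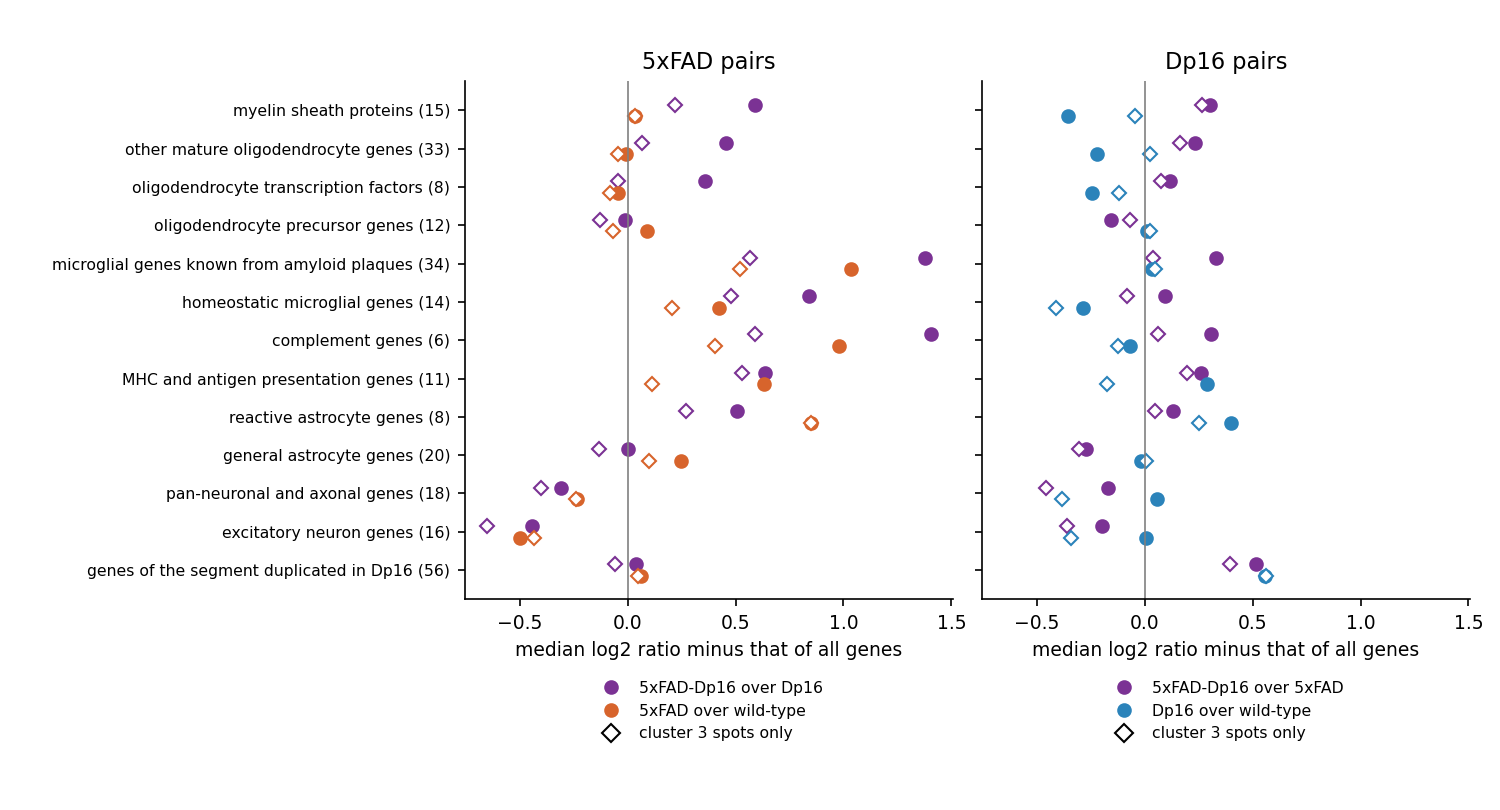
Median log2 ratio of each gene list relative to the median of all genes, in the 5xFAD pairs (left) and the Dp16 pairs (right). Circles are all FB spots and diamonds FB spots of cluster 3, with the number of genes over 10 CPM in brackets. The plaque-associated microglial list is at 1.38 and 1.03 in the 5xFAD pairs, and the genes of the duplicated segment are at 0.52 and 0.56 in the Dp16 pairs.

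The genes of the segment duplicated in Dp16 were higher in both Dp16 pairs. Of 89 measured, 56 were over 10 CPM, and their relative median log2 ratio was 0.52 for 5xFAD-Dp16 over 5xFAD and 0.56 for Dp16 over wild-type, against 0.54 and 0.54 in the rest of the sections. A change from 2 to 3 copies corresponds to 0.585 on this scale. Of the 56, 22 were above counting error in both pairs (background 1.84% of all genes) and none below, and 8 were at least 1.5-fold higher in both (0.243%). The list was chosen for its position, so it serves as a check of the labels. Atp5o, a subunit of the mitochondrial ATP synthase, was at 657 and 739 CPM in the 5xFAD-Dp16 and Dp16 sections, against 417 and 428 CPM in the 5xFAD and wild-type sections. Ifnar2, a chain of the interferon receptor, was at 92.8 and 58.4 CPM in the 5xFAD-Dp16 and Dp16 sections, against 43.5 and 37.4 CPM in the 5xFAD and wild-type sections. App, the amyloid precursor gene (chr16:84952666-85175255), was at 1361 and 1271 CPM in the 5xFAD-Dp16 and Dp16 sections, against 977 and 1131 CPM in the 5xFAD and wild-type sections.

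The segment holds the oligodendrocyte lineage factors Olig1 (chr16:91269769-91271939) and Olig2 (chr16:91225550-91228677). Olig2 was at 110.1 and 101.5 CPM in white matter of the 5xFAD-Dp16 and Dp16 sections, against 81.1 and 78.7 CPM in the 5xFAD and wild-type sections, and its log2 ratios were 0.44 (0.15 to 0.73) and 0.37 (0.13 to 0.61). Olig1 was at 742 and 549 CPM in the 5xFAD-Dp16 and Dp16 sections, against 492 and 554 CPM in the 5xFAD and wild-type sections, with ratios of 0.59 (0.48 to 0.71) and -0.01 (-0.11 to 0.08). Within cluster 3 the ratios of Olig1 were 0.62 and 0.27. Both were higher in white matter than in the rest of every section, by 1.98 for Olig1 and 1.97 for Olig2.

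Grik1 (chr16:87895901-88290863), a kainate receptor subunit gene of the segment, is shown because it had the highest ratios of it, and it averaged over 10 CPM through the 2 sections with the duplication. It was at 22.1 and 17.2 CPM in white matter of the 5xFAD-Dp16 and Dp16 sections, against 5.83 and 4.87 CPM in the 5xFAD and wild-type sections, from 46, 46, 13 and 19 UMIs. The ratios were 1.92 (1.01 to 2.94) for 5xFAD-Dp16 over 5xFAD and 1.82 (1.02 to 2.68) for Dp16 over wild-type, while in the rest of the sections they were 0.66 and 0.62. In cluster 3 they were 2.38 and 2.31. FB had rank 2 of 12 regions for Grik1 in both sections with the duplication and rank 8 in both without it. Clic6 and Kcne2, also of the segment and expressed in the choroid plexus, differed by -1.87 and -1.11 for 5xFAD-Dp16 over 5xFAD and by 0.80 and 0.68 for Dp16 over wild-type, beside the different shares of clusters 12 and 13.

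Outside the segment few genes passed 1.5-fold in both Dp16 pairs. In all, 22 genes passed 1.5-fold upwards in both, 14 of them outside the segment, and 43 were lower in both (0.475%). Lyz2, the lysozyme gene of myeloid cells, was at 272 and 104 CPM in the 5xFAD-Dp16 and Dp16 sections, against 156 and 45.6 CPM in the 5xFAD and wild-type sections, and Hsd11b1, which reactivates glucocorticoids, was at 29.3 and 32.6 CPM in the 5xFAD-Dp16 and Dp16 sections, against 10.8 and 18.7 CPM in the 5xFAD and wild-type sections. In cluster 3 the ratios of Lyz2 were 0.66 and 0.49. Among the lower genes were the neuropeptide genes Avp, Tac2 and Cartpt, which are specific to small groups of neurons. The myelin protein list had relative medians of 0.30 for 5xFAD-Dp16 over 5xFAD and -0.35 for Dp16 over wild-type. In cluster 3 they were 0.26 and -0.05.

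Sgk1 (chr10:21882184-21999903) had the largest positive difference between the effects of the transgenes with and without the duplication among genes with at least 20 CPM. The gene encodes a kinase induced by glucocorticoids, and oligodendrocytes express it. It was at 376.5, 151.5, 63.7 and 376.9 CPM in white matter of the 5xFAD-Dp16, 5xFAD, Dp16 and wild-type sections. The 5xFAD-Dp16 and wild-type sections were alike, and the 5xFAD and Dp16 sections lay below them. The log2 ratio was 2.56 (2.32 to 2.81) for 5xFAD-Dp16 over Dp16 and -1.32 (-1.49 to -1.14) for 5xFAD over wild-type, and the first exceeded the second by 3.88 (3.59 to 4.17). In cluster 3 the levels were 521, 159.5, 73.5 and 532 CPM in the 5xFAD-Dp16, 5xFAD, Dp16 and wild-type sections. In the remaining spots the order was the same but the range narrower, at 85.5, 59.7, 49.9 and 97.2 CPM. Plekhf1 and Arl4d had the same order of sections in all FB spots, with excesses of 2.64 (1.84 to 3.45) and 2.54 (1.92 to 3.15). For Mal the excess was 1.02 (0.92 to 1.11). With 1 animal per genotype, a difference of this kind between 4 sections cannot be told apart from a difference between 4 animals.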

How the data were processed

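Visium sections were profiled by the authors with Space Ranger and Seurat against mm10, per the submitters' processing notes, which give no versions used here. The deposited matrix holds raw UMI counts of 19090 genes in 10549 spots, per the values in the file, and the authors' deposited table gives each spot's region, cluster, plaque mark and section. The sources used here do not say how these were drawn. The same table's percent of mitochondrial UMIs per spot was taken as the authors deposited it. Counts were summed over FB spots, other spots, the region VL and the thalamus of each section. Region differences were tested with edgeR 4.0.16 (quasi-likelihood, TMM factors, section as a block, Benjamini-Hochberg adjustment, R 4.3.3), and genotype ratios were computed as CPM ratios with exact 95% intervals (scipy 1.17.1), which cover counting error only. The scripts were tested on simulated data. Genes over 10 CPM on average were counted at 1.5-fold. Alternatives were DESeq2 1.42.0, no TMM, other filters and thresholds, cluster 3 spots, unmarked spots, each section left out and, chosen after seeing the data, clusters 12 and 13 left out. The genes named were those ranked highest and lowest in each comparison plus fixed markers. Members, lists and rules were chosen with earlier results of these data known, and some lists were taken from an earlier analysis of these files made with their values in view. Positions are from RefSeq (GRCm38.p6) for 239 of 240 named genes. Some genes that the rule names are not reported here. Nothing says that sections were replicated, so genotype comparisons carry no p-value.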

Additional observations from a re-analysis of the deposited data

Results flagged for a closer look

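Of 30 gene lists with at least 6 genes over 10 CPM in white matter, 14 had relative median log2 ratios of opposite sign in the 2 pairs of the 5xFAD effect, and 23 in those of the Dp16 effect. The 5 lists given here are those whose median lay away from 0 on opposite sides by a 95% range over their genes, which are not replicates. None of these differences was tested, since each pair is 1 section against 1. Myelin protein genes were at 0.30 for 5xFAD-Dp16 over 5xFAD and -0.35 for Dp16 over wild-type, and in cluster 3 spots at 0.26 and -0.05. Mature oligodendrocyte genes were at 0.23 and -0.22 in these pairs, and in cluster 3 spots at 0.16 and 0.02. Ependymal genes were at -0.25 and 0.29. Meningeal genes were at -1.77 for 5xFAD-Dp16 over 5xFAD and 1.499 for Dp16 over wild-type, and also at -1.79 for 5xFAD-Dp16 over Dp16 and 0.90 for 5xFAD over wild-type. Choroid plexus genes were at -1.53 for 5xFAD-Dp16 over Dp16 and 0.79 for 5xFAD over wild-type. Beside these lists stand the FB spots of cluster 13, rich in Ttr in every section, which numbered 11, 34, 23 and 23 in the 5xFAD-Dp16, 5xFAD, Dp16 and wild-type sections. Without clusters 12 and 13 the choroid plexus medians were -0.84 for 5xFAD-Dp16 over Dp16 and 1.38 for 5xFAD over wild-type.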

How the results depend on the processing

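The precision is limited by 1 section per genotype and by the shallow white matter spots. Region differences kept their direction and call in 937 recomputed gene values, while 9 lost the threshold and 4 gained it, and Cst7 reversed in cluster 3 spots (-0.28 against the rest). Leaving out each section in turn gave 2981 to 3517 genes higher and 2936 to 3531 lower against the rest, 1220 to 1692 and 1346 to 1867 against VL, and 2596 to 2918 and 2631 to 2888 against the thalamus. Against VL, no TMM factors gave 2858 higher.

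No paired analysis was possible between genotypes because each genotype had 1 section, from a different mouse. For regions, the pairing of FB with the rest of the same section was in the fit, and without the replicate block 3416 genes were higher and 3115 lower against the rest, 1607 and 1867 against VL, and 2781 and 2698 against the thalamus.

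Recounted under each setting, and not as part of the first count, the genes higher in both 5xFAD pairs (69) numbered 33 in unmarked spots, 267 over 1 CPM, 45 over 20 CPM, 24 at 2-fold and 108 without clusters 12 and 13. Those lower (216) numbered 128 with TMM factors, 119 as a mean over spots, 474 in unmarked spots, 624 over 1 CPM, 125 over 20 CPM and 20 at 2-fold. Genes outside the segment higher in both Dp16 pairs (14) numbered 30 without mitochondrial, ribosomal protein and haemoglobin genes, 47 in cluster 3, 25 as a mean over spots, 29 in unmarked spots, 211 over 1 CPM, 4 over 20 CPM, 0 at 2-fold and 9 without clusters 12 and 13. Those lower (43) numbered 73, 228 and 73 under the first 3 of these settings, 291 over 1 CPM, 8 over 20 CPM and 6 at 2-fold.

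The difference between transgene effects was 4.56 for Sgk1 and 0.65 for Mal in cluster 3, 4.30 and 0.85 as a mean over spots, and 4.30 and 0.86 without clusters 12 and 13. It reversed in cluster 3 for Penk (-1.24). The excess of Spp1 over the rest for 5xFAD-Dp16 over Dp16 was 0.0495 in cluster 3 and 0.58 as a mean over spots. For 5xFAD over wild-type it was -0.32 in cluster 3 and -0.0316 in unmarked white matter. The cluster 3 and unmarked settings restricted white matter only, and the rest kept all its spots. Myelin protein genes in 5xFAD-Dp16 over Dp16 were at 0.22 in cluster 3 and 0.42 as a mean over spots, and in Dp16 over wild-type at -0.0482 in cluster 3. Mature oligodendrocyte genes in Dp16 over wild-type reversed to 0.0246 in cluster 3. The plaque-associated list was at 0.57 in cluster 3 for 5xFAD-Dp16 over Dp16, and at 0.52 in cluster 3 and 0.71 in unmarked spots for 5xFAD over wild-type. In cluster 3 these single ratios reversed: Cst7 (-0.67), Wfdc17 (-0.67) and Pcp4 (-0.16) for 5xFAD-Dp16 over 5xFAD, Pomk (-0.36) for Dp16 over wild-type, Prdm8 (1.34) for 5xFAD-Dp16 over Dp16, and Avp (0.72) and Baiap3 (0.31) for 5xFAD over wild-type. The cause was not tested for any of these.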

Other observations

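Some genes differed widely between the white matter of the 4 sections. Igkc, the immunoglobulin kappa constant gene of plasma cells, had 1.92, 403, 2.996 and 2.82 CPM in white matter of the 5xFAD-Dp16, 5xFAD, Dp16 and wild-type sections. Th, the tyrosine hydroxylase gene of dopamine neurons, had 1.44, 23.8, 61.8 and 2.82 CPM in the 5xFAD-Dp16, 5xFAD, Dp16 and wild-type sections, against 3.78, 5.88, 5.67 and 9.65 CPM in the rest of them. Cd74, the invariant chain of MHC class II, had 35.1, 103.5, 67.8 and 9.23 CPM in the 5xFAD-Dp16, 5xFAD, Dp16 and wild-type sections. Hbb-bs, an adult beta-globin gene of red blood cells, had 289.9, 392.5, 195.5 and 847 CPM in white matter of the 5xFAD-Dp16, 5xFAD, Dp16 and wild-type sections, against 426, 517, 257 and 694 CPM elsewhere.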
